A study of Mus musculus with 12 samples.

Results

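Chemokines are small secreted proteins that guide migrating cells, and this account follows their genes and the genes of their receptors through dorsal root ganglia (DRG) and hind paw tissue of mice. The members were all gene symbols made of Ccl, Cxcl, Ccr or Cxcr followed by a digit, without the Ccrl and Ccrn genes, together with Cx3cl1, Cx3cr1 and Xcl1. They came to 58 of the 22609 gene symbols in the count tables, of which 39 encode ligands and 19 encode receptors. RNA-seq had been performed on whole DRG and on hind paw tissue from C57BL/6J mice of each sex to ask how the sexes differ in sensory tissue. The 12 libraries fell into 4 groups of 3, namely male hind paw, female hind paw, male DRG and female DRG. All groups share the same strain, an age between 8 and 14 weeks and, by their labels, an injection of 20 µl saline into the paw, and no group carries a transgene or a drug. The methods instead describe naïve mice, with females in the estrous phase, ganglia of the lumbar levels and a skin punch biopsy of the paw.

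Chemokine ligands bind receptors that signal through Gi proteins, and most are named for the spacing of their conserved cysteines (CC, CXC, CX3C and XC). Some ligands, such as Cxcl12, are made constantly and hold cells in place, whereas others, such as Cxcl1 and Ccl2, are induced by inflammatory signals and draw neutrophils and monocytes out of the blood. In sensory ganglia and skin, chemokines are known both as recruiters of immune cells and as signals that sensory neurons can respond to directly.

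Reads counted on genes ranged from 6866545 to 13470783 per hind paw library and from 8988497 to 13327072 per DRG library. Of these, between 4069 and 9843 reads per hind paw library and between 1926 and 3721 reads per DRG library fell on the chemokine genes. Male hind paw library 2 had the lowest total, and 55.5% of its listed reads aligned to more than 1 place. Levels below are given as RPKM, which is reads per kilobase of exon scaled for library depth, or as normalized read counts, which can be compared between libraries for 1 gene. RPKM sets genes side by side, but its length is that of all annotated exons of a gene together. Ranks between genes depend on that length. The neuron markers (5 of 5 found, Tubb3 the most abundant) summed to between 1255 and 1767 RPKM in the DRG libraries and to between 8.09 and 19.5 RPKM in the hind paw. The keratinocyte markers (5 of 5 found, Krt10 the most abundant) summed to between 13134 and 22647 RPKM in the hind paw and to between 9.27 and 30.2 RPKM in DRG. No library went against its tissue label in these markers. RNA of whole tissue does not tell fewer cells of a type from less RNA per cell.

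Some libraries stood apart in the chemokine genes. Female DRG library 1 held the highest normalized count of the 6 DRG libraries in 17 of the 21 chemokine genes tested between the sexes there, against 18.2% of all 14456 genes tested in DRG. Male hind paw library 1 held the lowest count of the 6 hind paw libraries in 12 of the 31 chemokine genes tested there, against 18.2% of all 14316 genes tested in the hind paw. Where a result rests on these libraries, its value without them is given as well.

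Tests between the tissues covered genes that reached 10 counts in 3 or more of the 12 libraries, which left 35 of the 58 chemokine genes, 24 ligands and 11 receptors. Of these 35, 18 reached that minimum within each tissue, 13 only within the hind paw and 3 only within DRG. The 13 were Ccl3, Ccl8, Ccl17, Ccl22, Ccl24, Cxcl1, Cxcl2, Cxcl3, Cxcl5, Ccr4, Ccr7, Ccr9 and Cxcr6. The 3 were Ccl27a, Cxcl9 and Cxcl11. The genes of these last groups were tested because of 1 tissue alone, so their tissue direction was in part set by the filter. The remaining gene, Ccl12, reached it only through libraries of both tissues. Among the 23 genes that were not tested, 7 ligands had 0 reads in all 12 libraries, namely Ccl19, Ccl21a, Ccl21b, Ccl21c, Ccl27b, Ccl28 and Cxcl15. Such a 0 allows a share of up to 2.23e-05% to 4.37e-05% of the counted reads, depending on the library and for counting error alone. In the NCBIM37 (mm9) genome, 100% of the 50-base windows in the exons of Ccl19, Ccl21a, Ccl21b, Ccl21c and Ccl27b occur at more than 1 place, and reads with more than 1 alignment were not counted. Their 0 is therefore no measure of their expression. For Cxcl15 the share of repeated windows was 5.08%, and Ccl28 was not matched to the annotation and was not examined in this way.

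The other untested genes had few reads. Ccl1, the ligand of Ccr8, had between 0 and 9 reads per library, all of them in DRG. Cxcl17 and Cxcl13, the latter a B cell attractant, reached 10 and 11 reads in the hind paw and at most 1 and 4 reads in a DRG library. Ccl20, Ccl4, Ccl5, Ccl26 and Xcl1 had at most 7, 5, 14, 1 and 1 reads in any library. Among the receptors, Ccr3, Ccr6, Ccr8, Ccr10, Ccr1l1, Cxcr1, Cxcr3 and Cxcr5 had at most 10, 7, 2, 8, 2, 1, 15 and 6 reads in any library. With no filter on low counts, 28 chemokine genes were called higher in the hind paw, with Ccl20, Ccr6, Cxcl13 and Cxcl17 added, and 9 higher in DRG, with Ccl1, Ccr10 and Cxcr5 added (edgeR).

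In the hind paw, the ligands with the highest mean RPKM were Cxcl14, Ccl6, Cxcl12, Ccl7 and Ccl2, and in DRG they were Ccl11, Cxcl12, Cxcl10, Ccl6 and Ccl12. Cxcl14, a ligand made by epithelium and fibroblasts, had a level of 61.4 ± 9.17 RPKM (SD, n = 6) in the hind paw, where it had the highest ligand RPKM in each library. Ccl6, a macrophage product that acts on Ccr1, reached 35.6 ± 6.42 RPKM there, so the gap between these first ranks was larger than their spread. Cxcl12 followed with 27.4 ± 4.28 RPKM, Ccl7 with 19.5 ± 7.99 RPKM and Ccl2 with 19.4 ± 6.02 RPKM, and these neighbours overlapped within their spread. In DRG, Ccl11 (eotaxin, an eosinophil attractant) had a level of 19.2 ± 5.44 RPKM and had the highest ligand RPKM in all 6 libraries. Cxcl12 had 9.10 ± 1.08 RPKM and Cxcl10 had 4.60 ± 5.37 RPKM, an SD above the mean that female DRG library 1 sets. Ccl6 and Ccl12 had 4.39 ± 1.51 RPKM and 2.85 ± 2.98 RPKM, and Cxcl10, Ccl6 and Ccl12 did not differ beyond their spread. Without female DRG library 1 the order of the first 5 was Ccl11, Cxcl12, Ccl6, Cxcl10 and Cx3cl1, with 3.90 ± 1.06 RPKM for Ccl6, 2.51 ± 1.83 RPKM for Cxcl10 and 2.21 ± 0.136 RPKM for Cx3cl1 (SD, n = 5). Cxcl12 has 8176 exon bases, against 1823 for Cxcl14 and 1082 for Ccl11. Its mean normalized count was 2397 against 1198 for Cxcl14 in the hind paw, and 797 against 222 for Ccl11 in DRG. The first ranks therefore depend on the exon length used.

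**Figure D1:**
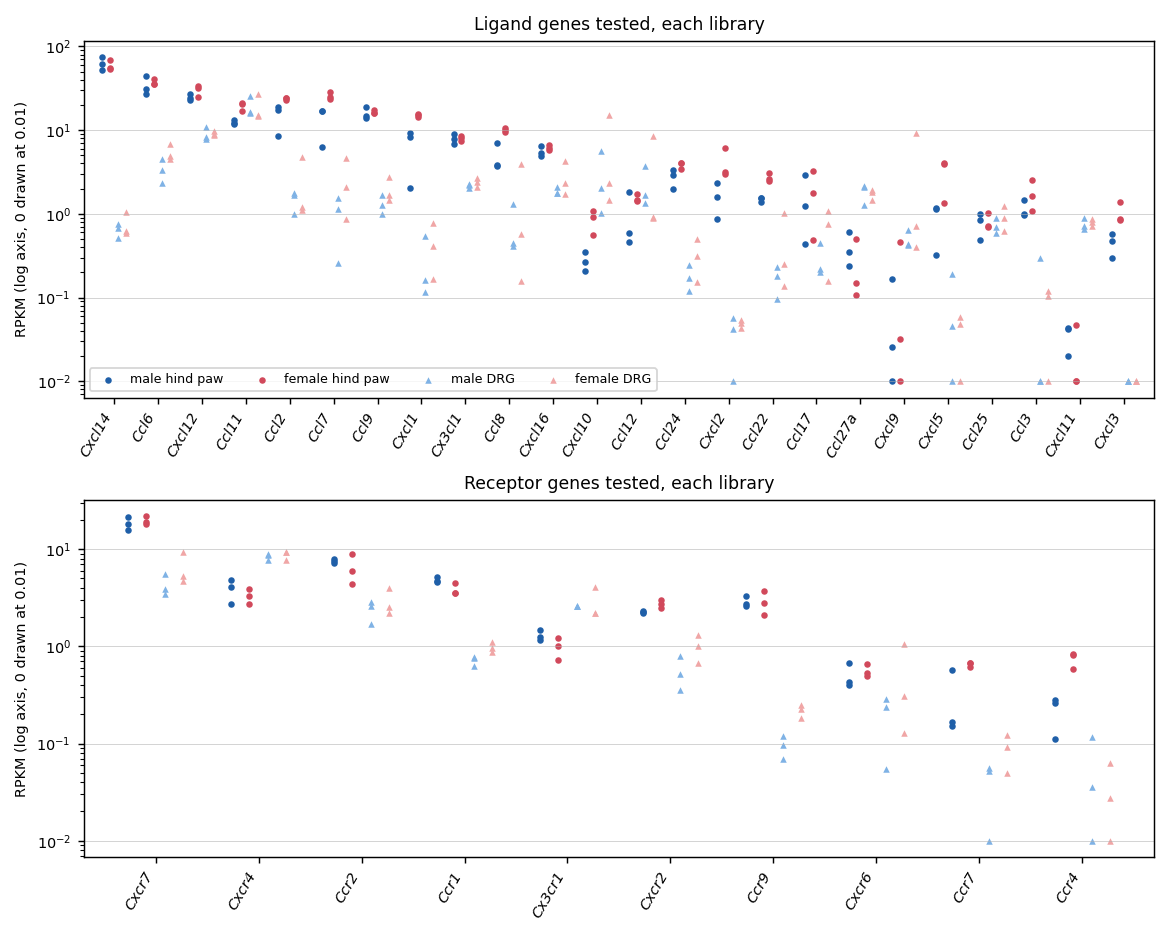
Levels of 24 tested ligand genes (upper panel) and 10 tested receptor genes (lower panel) in RPKM on a log axis, with 1 point per library, hind paw as circles and DRG as triangles, males in blue and females in red. Cxcl14 stands highest in the hind paw, Ccl11 is at similar levels in both tissues, and Cxcr4 and Cx3cr1 are the receptors with DRG above the hind paw.

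Chemokine genes were called between the tissues at an adjusted p-value below 0.05 and a fold change above 2, over 15666 tested genes. By this rule 24 of the 35 tested chemokine genes were higher in the hind paw, against 23.8% of all tested genes, and 6 were higher in DRG, against 26.3% of all tested genes. Among the 18 genes that reached the count minimum in each tissue, 12 were higher in the hind paw and 3 in DRG, against 20% and 21.9% of the 13150 genes of that kind. The ligands split into 17 higher in the hind paw, 4 higher in DRG and 3 called in neither direction. Among the 11 ligands that reached the count minimum in each tissue, 8 were higher in the hind paw and 1 in DRG. When single libraries were left out, the counts ran from 20 to 25 for the hind paw and from 6 to 7 for DRG. The genes lost in this way were Ccl3, Ccl17, Ccr7 and Cxcl3, each because it no longer reached the count minimum when certain hind paw libraries were left out. Without male hind paw library 1, female DRG library 2 or female DRG library 3 Ccl12 was called higher in DRG, for a count of 7, and without female DRG library 1 Cxcr6 was called higher in the hind paw, for a count of 25.

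Cxcl14 (chromosome 13, 56390008 to 56397912) ranged from 52.2 to 74.9 RPKM in the hind paw with a median of 58.6, and from 0.515 to 1.06 RPKM in DRG with a median of 0.645. The 6 libraries of each tissue lay far apart, and the difference was 86.4-fold, a log2 fold change of 6.43 (standard error, SE, 0.15, adjusted p = 3.46e-13 by edgeR with quasi-likelihood F-test and Benjamini-Hochberg adjustment, as for every adjusted p from edgeR). Cxcl14 differed less between the sexes than between libraries of 1 sex, with a log2 fold change of -0.07 (SE 0.15) for females over males in the hind paw.

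Cxcl1, Cxcl2, Cxcl3 and Cxcl5, neutrophil attractants that bind Cxcr2, lie in a cluster on chromosome 5 and were higher in the hind paw. All 6 tested neutrophil markers were higher in DRG, against 26.3% of all tested genes, and 2 of them reached the count minimum in the hind paw. Of the 8 macrophage markers, 6 were higher in the hind paw (7 without female DRG library 1), against 23.8%, and 0 in DRG. The part of these cells in the tissue differences of ligands and receptors was not tested. Cxcl1 (91320267 to 91322141) ranged from 2.06 to 15.8 RPKM in the hind paw with a median of 11.8, and from 0.117 to 0.771 RPKM in DRG with a median of 0.290. Cxcl2 (91332897 to 91334935) ranged from 0.867 to 6.15 RPKM in the hind paw and had 5 reads over the DRG libraries together. The tissues did not overlap in either gene, and the log2 fold changes were 4.78 for Cxcl1 (SE 0.44, adjusted p = 3.01e-07) and 5.75 for Cxcl2 (SE 0.47, adjusted p = 8.05e-08) in edgeR's test. Cxcl1, Cxcl2, Cxcl3 and Cxcl5 reached the count minimum only within the hind paw, so their direction was in part set by that filter. Cxcl3 (91215129 to 91217112) had 49 reads in the hind paw and 0 reads in every DRG library, so it was at least 16.2-fold higher in the hind paw against a floor of 3 counts over the 6 DRG libraries. Cxcl5 (91188325 to 91190651) had a log2 fold change of 4.74 (SE 0.63, adjusted p = 1.02e-05). Of the exon windows of Cxcl2 and Cxcl3, 2.50% and 5.17% occur at more than 1 place in the genome.

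Promoters of Cxcl1, Cxcl2 and Cxcl3 are shown here because they hold the same motif letters, and that of Cxcl10 because it holds those of both motifs searched. RefSeq promoter entries (table of build GRCm38.p6) were found for 41 of the 58 chemokine genes, without an entry for Cxcl5, and the 250 bases before the start of each were searched on both strands for the kappa B motif (GGGA, 2 bases of any kind, TTCC) and for the interferon response motif (GAAA, 2 bases of any kind, GAAA). The kappa B letters occurred in 6 of the 41 genes (Ccl1, Ccr3, Cxcl1, Cxcl2, Cxcl3 and Cxcl10) and in 1.21% of all 32851 promoters. The interferon letters occurred in 3 of the 41 genes (Ccl19, Cxcl10 and Cxcl14) and in 2.98% of all promoters. The chemokine genes were counted by gene and all promoters by entry, so these shares are not of the same unit. Cxcl1, Cxcl2 and Cxcl3 lie in 1 cluster and hold the same marked letters, so their matches are not separate cases. In Cxcl1, Cxcl2 and Cxcl3 the kappa B match begins 71, 97 and 73 bases before the start, and in each it overlaps a match on the opposite strand. Cxcl10, described below among the ligands higher in DRG, holds the interferon letters from 213 bases and the kappa B letters from 159 bases before its start. Each sequence runs 5′ to 3′ along the gene's own strand, its position is an exact match in NCBIM37, and capitals mark the motif letters. A match is a description of the letters and not of binding.
Cxcl1 (NCBIM37 chr5:91320021-91320270, strand +): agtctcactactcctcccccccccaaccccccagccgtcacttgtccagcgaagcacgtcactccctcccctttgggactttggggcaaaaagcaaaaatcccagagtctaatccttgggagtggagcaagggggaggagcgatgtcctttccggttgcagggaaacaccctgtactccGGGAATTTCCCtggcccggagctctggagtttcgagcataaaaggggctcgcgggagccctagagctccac
Cxcl2 (NCBIM37 chr5:91332675-91332924, strand +): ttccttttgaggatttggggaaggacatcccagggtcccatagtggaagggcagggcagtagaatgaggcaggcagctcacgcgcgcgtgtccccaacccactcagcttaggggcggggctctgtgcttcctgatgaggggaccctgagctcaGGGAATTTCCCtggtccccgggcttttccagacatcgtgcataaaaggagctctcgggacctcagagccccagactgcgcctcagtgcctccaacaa
Cxcl3 (NCBIM37 chr5:91214877-91215126, strand +): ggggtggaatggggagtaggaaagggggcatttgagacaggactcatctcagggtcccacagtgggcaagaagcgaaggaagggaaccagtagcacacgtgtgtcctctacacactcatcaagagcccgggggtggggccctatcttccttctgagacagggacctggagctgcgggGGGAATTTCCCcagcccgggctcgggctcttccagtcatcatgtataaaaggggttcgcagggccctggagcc
Cxcl10 (NCBIM37 chr5:92777916-92778165, strand -): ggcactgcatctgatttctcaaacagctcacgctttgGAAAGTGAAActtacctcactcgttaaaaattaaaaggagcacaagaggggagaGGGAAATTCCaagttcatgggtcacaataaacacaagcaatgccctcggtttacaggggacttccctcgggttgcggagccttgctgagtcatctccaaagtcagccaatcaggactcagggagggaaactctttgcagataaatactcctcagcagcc

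Several CC ligands of monocytes were higher in the hind paw as well, and Ccl12, described below, was not. Ccl2 (chromosome 11, 81849073 to 81850955), the main ligand of Ccr2, ranged from 8.49 to 24.5 RPKM in the hind paw with a median of 20.9, and from 1.01 to 4.84 RPKM in DRG with a median of 1.44. Its log2 fold change was 3.31 (SE 0.32, adjusted p = 5.45e-07, edgeR). Ccl7 and Ccl8 in the same cluster had log2 fold changes of 3.51 and 2.76, and without female DRG library 1 the value for Ccl8 was 3.79. The Ccr1 ligands Ccl6, Ccl9 and Ccl3 had log2 fold changes of 3.07, 3.34 and 3.63, and the eosinophil attractant Ccl24 one of 3.75. Ccl3 had 5 reads over the DRG libraries together, and its value ran from 3.39 to 5.22 with single libraries left out. Ccl17 and Ccl22, the ligands of Ccr4, were higher by log2 fold changes of 1.86 and 2.79, and Ccl8 and Ccl17 overlapped between tissues. Without female DRG library 1 the value for Ccl22 was 3.42. The membrane-bound ligands Cx3cl1 and Cxcl16 had log2 fold changes of 1.80 and 1.36, and Cxcl12 one of 1.58. Of the 3021 exon bases of Cxcl16, 552 are shared with Zmynd15 on the opposite strand. Adjusted p-values of these ligands lay between 2.80e-10 for Ccl9 and 0.0142 for Ccl17 in edgeR's test. Among them, Ccl3, Ccl8, Ccl17, Ccl22 and Ccl24 reached the count minimum only within the hind paw, so their direction was in part set by that filter.

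The ligand genes higher in DRG were Cxcl9, Cxcl10 and Cxcl11, known in general as interferon-inducible ligands of Cxcr3, and Ccl27a. Of these, Cxcl9, Cxcl11 and Ccl27a reached the count minimum only within DRG, so their direction was in part set by that filter. Cxcl10 reached it in each tissue. Cxcl11 (chromosome 5, 92788570 to 92794511) ranged from 0.668 to 0.883 RPKM in DRG with a median of 0.760, and had at most 2 reads in any hind paw library. It varied little among the 6 DRG libraries, and its log2 fold change for the hind paw over DRG was -4.90 (SE 0.36, adjusted p = 2.66e-08, edgeR). With single libraries left out, the value for Cxcl11 ran from -6.20 to -4.63. Of its 3794 exon bases, 1582 are shared with Gm2673 on the opposite strand. The libraries were made with a stranded kit, but the strand setting of the counting is not given in the sources used here, so it is not known whether reads of the 2 genes were separated. Cxcl9 ranged from 0.405 to 9.26 RPKM in DRG with a median of 0.533, and Cxcl10 from 1.03 to 15 RPKM with a median of 2.19. The top value of each came from female DRG library 1, which was not the highest in Cxcl11. The tissues overlapped in Cxcl9 and in Cxcl10, with hind paw values of up to 0.455 RPKM and 1.09 RPKM. The log2 fold changes were -3.89 for Cxcl9 (SE 1.11, adjusted p = 0.00549) and -3.11 for Cxcl10 (SE 0.69, adjusted p = 8.88e-04) in edgeR's test. Without female DRG library 1 they were -2.60 and -2.26 (adjusted p = 0.00433 and 5.06e-04, edgeR). With each single library left out in turn, the value ran from -5.44 to -2.60 for Cxcl9 and from -3.35 to -2.26 for Cxcl10.

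Ccl27a, a ligand known for its expression in keratinocytes, ranged from 0.106 to 0.605 RPKM in the hind paw with a median of 0.295, and from 1.27 to 2.13 RPKM in DRG with a median of 1.88. The log2 fold change of Ccl27a was -2.55 (SE 0.31, adjusted p = 4.51e-06, edgeR). Of its 2181 exon windows, 69.9% occur at more than 1 place in the genome, in up to 12 copies, so the counts come from the remaining part of the gene and the tissue order of the whole gene is uncertain.

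Ccl11, Ccl25 and Ccl12 were called in neither direction. Ccl11 (chromosome 11, 81871325 to 81876457) ranged from 11.8 to 21.0 RPKM in the hind paw with a median of 15.1, and from 14.7 to 26.9 RPKM in DRG with a median of 16.5. The 95% interval of its log2 fold change, from the standard error, ran from -0.62 to 0.03. For Ccl25, a ligand of Ccr9, that interval ran from -0.54 to 0.39, and for Ccl12 from -2.34 to 0.03. Without female DRG library 1 the interval of Ccl12 ran from -1.05 to 0.63. Of the 2668 exon bases of Ccl25, 1109 are shared with another annotation entry of the same name.

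**Figure D2:**
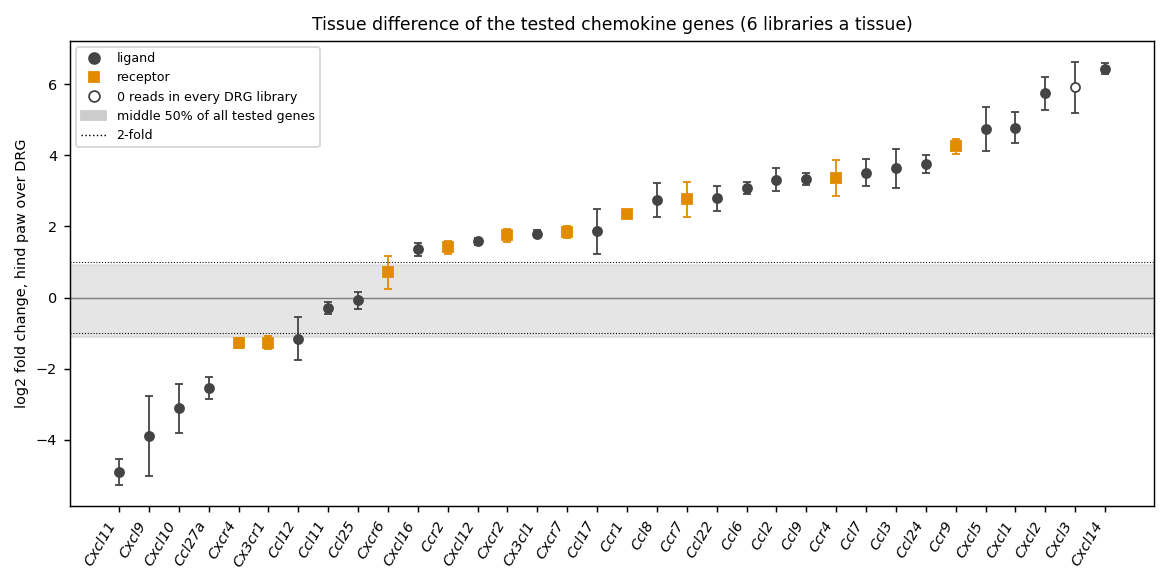
Log2 fold change of the hind paw over DRG for 34 of the 35 tested chemokine genes, with bars of 1 standard error, ligands as grey circles and receptors as orange squares. The grey band is the middle 50% of all 15666 tested genes, from -1.10 to 0.93, the dotted lines mark a 2-fold difference, and the open circle is Cxcl3, whose fitted value is no bound because all its DRG libraries are at 0.

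Of the 11 tested receptors, 7 were higher in the hind paw, 2 were higher in DRG and 2 were called in neither direction. The shares of all tested genes were 23.8% higher in the hind paw and 26.3% higher in DRG. Among the 7 receptors that reached the count minimum in each tissue, 4 were higher in the hind paw and 2 in DRG. All genes of that kind gave 20% and 21.9%. Ccr4, Ccr7, Ccr9 and Cxcr6 reached it only within the hind paw, so their tissue direction was in part set by the filter. The receptors with the highest mean RPKM in the hind paw were Cxcr7 (also Ackr3, a scavenger of Cxcl12), Ccr2, Ccr1, Cxcr4 and Ccr9, at 19.0 ± 2.24, 6.98 ± 1.57, 4.33 ± 0.641, 3.57 ± 0.807 and 2.88 ± 0.553 RPKM (SD, n = 6). Cxcr7 stood above the others by more than their spread, and Ccr1, Cxcr4 and Ccr9 overlapped between neighbours. In DRG the order was Cxcr4 with 8.61 ± 0.727 RPKM, Cxcr7 with 5.41 ± 2.13, Cx3cr1 with 2.71 ± 0.704 and Ccr2 with 2.64 ± 0.760. The levels of Cx3cr1 and Ccr2 did not differ beyond their spread.

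Cxcr4, the signalling receptor of Cxcl12, ranged from 7.67 to 9.33 RPKM in DRG with a median of 8.80, and from 2.70 to 4.76 RPKM in the hind paw with a median of 3.57. Every DRG library lay above every hind paw library, and the log2 fold change for the hind paw over DRG was -1.28 (SE 0.14, adjusted p = 1.27e-06, edgeR). Cx3cr1, the fractalkine receptor of macrophages and microglia, ranged from 2.18 to 4.09 RPKM in DRG and from 0.717 to 1.46 RPKM in the hind paw, again without overlap. On the log2 scale the hind paw over DRG value was -1.27 (SE 0.18, adjusted p = 2.12e-05, edgeR).

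Among the receptors higher in the hind paw, Ccr9, known for homing of T cells to the gut, ranged from 2.11 to 3.72 RPKM there with a median of 2.77, and had at most 10 reads in a DRG library. Its log2 fold change of 4.25 (SE 0.21, adjusted p = 3.40e-10, edgeR) was the highest of the tested receptors in this contrast. Of the 3217 exon bases of Ccr9, 325 are shared with other genes, among them Slc6a20a on the opposite strand. Ccr4 and Ccr7, receptors of T cells and migrating dendritic cells, had log2 fold changes of 3.36 and 2.76 from at most 3 reads in any DRG library. Ccr1, Cxcr7, Cxcr2 and Ccr2 had log2 fold changes of 2.35, 1.85, 1.75 and 1.41 and did not overlap between tissues. For Cxcr6 the 95% interval of the log2 fold change ran from -0.21 to 1.62, and without female DRG library 1 from 0.58 to 2.02.

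The list of known ligand and receptor pairs held 34 pairs, and both genes had a mean above 0.1 RPKM in 25 of them in the hind paw, in 18 in DRG and in 16 in both tissues. Both genes were tested in 18 pairs. In 12 of these the ligand and the receptor were both higher in the hind paw. The pairs of Cxcr2 and of Ccr4, and Ccl3 with Ccr1, hold genes that reached the count minimum only within the hind paw. Their direction was in part set by that filter. Receptors recur among the pairs, and no share over all genes was available for pairs, so the count is a description. In 2 pairs, Cxcl12 with Cxcr4 and Cx3cl1 with Cx3cr1, the ligand was higher in the hind paw and the receptor in DRG. Cxcl12 had a mean of 27.4 RPKM against 3.57 RPKM for Cxcr4 in the hind paw, and of 9.10 against 8.61 RPKM in DRG. For Cx3cl1 and Cx3cr1 the means were 7.95 and 1.13 RPKM in the hind paw and 2.29 and 2.71 RPKM in DRG. With its other receptor, Cxcr7, Cxcl12 shared the direction, since Cxcr7 ranged from 15.8 to 21.7 RPKM in the hind paw and from 3.46 to 9.43 RPKM in DRG. The Cxcr3 ligands met a receptor with at most 12 reads in a DRG library. Cxcr3 itself was not tested.

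**Figure D3:**
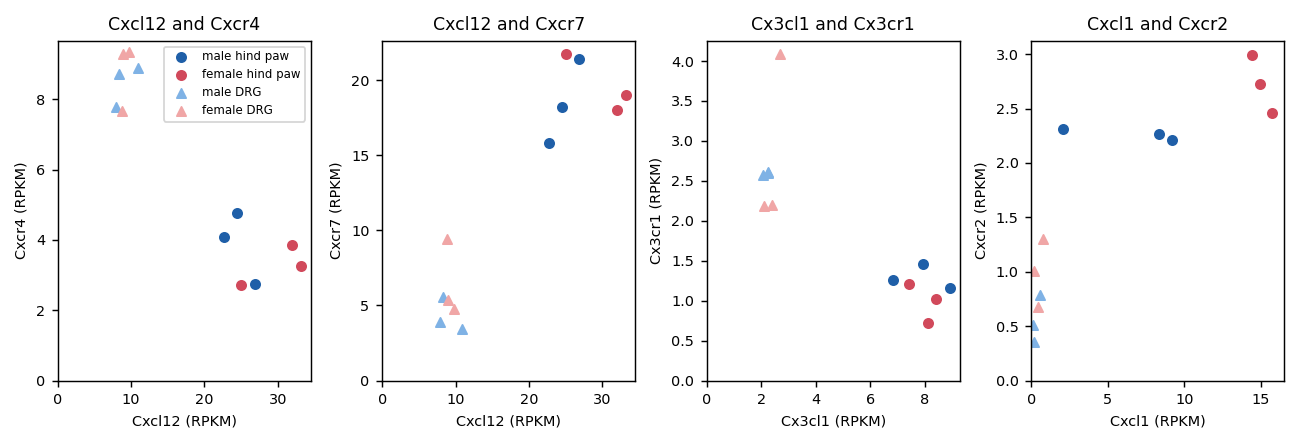
Ligand level (horizontal axis, RPKM) against receptor level (vertical axis, RPKM) for Cxcl12 with Cxcr4, Cxcl12 with Cxcr7, Cx3cl1 with Cx3cr1 and Cxcl1 with Cxcr2, with 1 point per library. DRG libraries lie at low ligand and high receptor in the panels of Cxcr4 and Cx3cr1, and at low ligand and low receptor in the other panels.

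Summed over all chemokine genes, ligand RPKM ranged from 199 to 285 in the hind paw libraries and from 46.7 to 109 in DRG, and receptor RPKM from 42.4 to 47.9 and from 19.0 to 33.8. The ligand sum was 5.54 ± 0.838 times the receptor sum in the hind paw (SD, n = 6) and 2.44 ± 0.454 times in DRG, and the lowest hind paw library (4.41) lay above the highest DRG library (3.22). The highest DRG sums of ligands and of receptors both belonged to female DRG library 1, and without it the DRG ratio was 2.29. These ratios depend on the exon lengths used, are a description and were not tested.

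Between the sexes, 31 of the 58 chemokine genes could be tested in the hind paw, 20 ligands and 11 receptors. At an unadjusted p-value below 0.05, 13 were higher in females, against 4.25% of all tested genes, and 0 were higher in males, against 5.49% of all tested genes. No chemokine gene passed an adjusted p-value of 0.05 in edgeR's test, against 0.154% of all tested genes, and DESeq2 gave 2 (Ccl11 with an adjusted p of 0.0244 and Cxcl5 with 0.0366), out of 208 genes that it called among all tested. At an unadjusted p-value below 0.05 DESeq2 gave 11 higher in females and 0 higher in males, out of 1070 genes in either direction. In 14 of the 31 the lowest female library was above the highest male library, against 6.64% of all tested genes, and in 1 gene, the receptor Ccr1, the order was the reverse. Among both the 13 and the 14, Cxcl3, Cxcl10 and Ccr7 reached the count minimum only through female libraries. Their direction was in part set by that filter. The median log2 fold change of the 20 tested ligands was 0.68 and that of the 11 tested receptors 0.10, beside -0.01 for all tested genes. The fitted difference was in favour of females in 26 of the 31, and in 48.7% of all tested genes. Without male library 1 it was 21 of 30, with medians of 0.59 and 0.07, and 49.2% of all tested genes. For 1 gene, the smallest 2-sided p that an exact permutation test of 3 libraries against 3 allows is 0.1.

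The 13 genes were the ligands Ccl2, Ccl7, Ccl8, Ccl11, Ccl22, Cxcl1, Cxcl2, Cxcl3, Cxcl5, Cxcl10 and Cxcl12 and the receptors Ccr4 and Ccr7. Cxcl5, Cxcl2 and Ccl8 had log2 fold changes of 1.90, 1.37 and 1.02 for females over males (unadjusted p = 0.00927, 0.0116 and 0.00425, adjusted p = 0.307, 0.327 and 0.237, edgeR). With single libraries left out these ran from 1.42 to 2.29, from 0.95 to 1.85 and from 0.86 to 1.39. Ccl11 had normalized counts of 155, 137 and 140 in male libraries 1 to 3 and of 241, 196 and 244 in female libraries 1 to 3. The sexes did not overlap, and the log2 fold change for females over males was 0.67 (SE 0.13, unadjusted p = 0.00100, adjusted p = 0.155, edgeR). Ccl22, which draws cells bearing Ccr4, had counts of 38.0, 34.3 and 38.6 in males and of 76.5, 65.0 and 61.2 in females. Females exceeded males by 0.87 on the log2 scale (SE 0.18, unadjusted p = 0.00117, adjusted p = 0.157, edgeR). The receptor Ccr4 had counts of 8.09, 3.43 and 8.78 in males and of 25.5, 18.0 and 25.7 in females, again without overlap. For Ccr4 the log2 fold change was 1.66 (SE 0.36, unadjusted p = 0.00171, adjusted p = 0.178, edgeR). Ccl17, the other ligand of Ccr4, overlapped between the sexes, with a log2 fold change of 0.27 (SE 0.78). The values of Ccl11, Ccl22 and Ccr4 kept an unadjusted p-value below 0.05 with each hind paw library left out in turn.

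Cxcl10 had counts of 5.66, 3.43 and 4.39 in male and of 15.1, 9.02 and 17.8 in female hind paws, a log2 fold change of 1.56 (SE 0.42, unadjusted p = 0.00580, adjusted p = 0.257, edgeR). Cxcl3 had counts of 3.24, 5.14 and 6.15 in males and of 9.44, 9.02 and 14.8 in females, with a log2 fold change of 1.21 (SE 0.43, unadjusted p = 0.0227, edgeR). In both the sexes did not overlap, and both had fewer than 20 counts in each hind paw library. Ccr7 had counts of 3.24, 12 and 3.51 in males and of 14.2, 14.4 and 12.8 in females, so male library 2 came close to the females. The sex difference was 1.38 on the log2 scale (SE 0.49, unadjusted p = 0.0228, edgeR). Cxcl12 had counts of 2353, 1987 and 2143 in males and of 2911, 2798 and 2191 in females, with overlap and a log2 fold change of 0.30 (SE 0.12, unadjusted p = 0.0362, edgeR). Without female library 1, female library 2, male library 2 or male library 3 the value for Cxcl12 was 0.22, 0.26, 0.25 or 0.30, each at an unadjusted p above 0.05. For Ccr7 it was 1.05 without male library 1 and 1.11 without male library 3, and for Cxcl3 0.92 without male library 1, again above 0.05. Cxcl10, Cxcl3 and Ccr7 were not tested when any 1 female library was left out, since they no longer reached the count minimum. With all libraries these genes reached it only through the female libraries, so their direction was in part set by that filter.

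Male hind paw library 1 was the lowest in several induced ligands and the highest male library in Cxcl10, Ccl8 and Ccl11. Ccl2 had counts of 104, 212 and 232 in males and of 292, 278 and 299 in females, with a log2 fold change of 0.69 (SE 0.27, unadjusted p = 0.0365, edgeR). For Cxcl1 the male counts were 21.0, 94.2 and 85.2 beside female counts between 147 and 161, and for Ccl7 they were 53.4, 144 and 146 beside female counts between 204 and 246. The female libraries lay above male libraries 2 and 3 as well. For Cxcl1 and Ccl7 the log2 fold changes were 1.27 and 0.98 with all libraries (unadjusted p = 0.0205 for each, edgeR). Without male library 1 the log2 fold changes were 0.38 for Ccl2, 0.79 for Cxcl1 and 0.61 for Ccl7 (unadjusted p = 0.0112, 0.000788 and 0.00289, edgeR), and 11 chemokine genes were higher in females, all of them among the 13. Ccl2 had values of 0.68, 0.73 and 0.66 without female library 1, 2 or 3, and Ccl7 had 0.89 without female library 3, each at an unadjusted p above 0.05. Leaving out female library 1 or female library 2 left 8 higher in females, and without female library 2 there were 2 higher in males, Ccr1 and Ccr2.

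**Figure D4:**
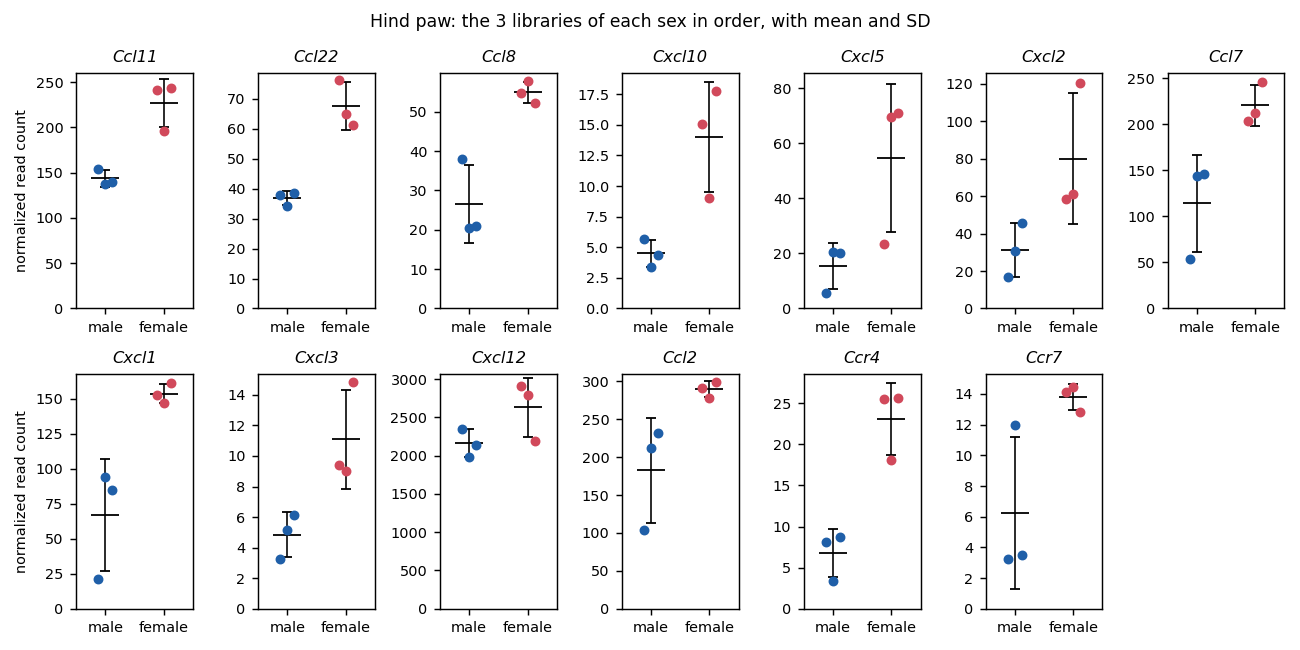
Normalized read counts of the 13 chemokine genes with an unadjusted p-value below 0.05 between the sexes in the hind paw, with 1 point per library in the order 1 to 3 and bars for the mean and SD. The sexes overlap only in Cxcl12 among these 13 genes, which in part follows from their choice by p-value in the same libraries. Male library 1 is the lowest point in Cxcl1, Cxcl2, Cxcl3, Cxcl5, Ccl2, Ccl7 and Ccr7.

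Markers of immune and skin cells were set beside these counts. The Langerhans and dendritic cell markers (5 of 5 found, Epcam the most abundant in the hind paw) summed to 22.3, 20.7 and 21.9 RPKM in male and to 27.6, 28.1 and 31.0 RPKM in female hind paws. Of them, Cd207, Itgax and Epcam had an unadjusted p-value below 0.05, with log2 fold changes of 0.85, 0.56 and 0.37 (edgeR). The macrophage markers (8 of 8 found, C1qb the most abundant in the hind paw) summed to 266, 156 and 171 RPKM in males and to 172, 144 and 115 RPKM in females, and 2 of 8, Cd68 and Emr1, had an unadjusted p-value below 0.05 with lower levels in females. The neutrophil markers (6 of 7 found, S100a8 the most abundant in the hind paw) summed to 15.3, 101 and 54.0 RPKM in males and to 41.2, 58.0 and 81.6 RPKM in females, and Mpo, Elane and Camp were at or near 0. The mast cell markers (5 of 5 found, Mcpt4 the most abundant in the hind paw) summed to 77.9, 39.9 and 45.7 RPKM in males and to 82.8, 95.5 and 62.1 RPKM in females, and the T and NK cell markers (5 of 6 found, Cd3e the most abundant in the hind paw) to 0.527, 0.516 and 0.656 RPKM in males and to 1.13, 0.692 and 1.01 RPKM in females, without overlap. Skeletal muscle markers (5 of 5 found, Acta1 the most abundant) summed to 990, 4724 and 3806 RPKM in male libraries 1 to 3 and to 2420, 860 and 3201 RPKM in female libraries 1 to 3. Male library 1 and female library 2 were thus the lowest of their sex. The endothelial and fibroblast markers (5 of 5 found in each, with Pecam1 and Dcn the most abundant) summed to between 48.2 and 53.5 RPKM and to between 1564 and 2184 RPKM in males, and to between 40.2 and 42.3 RPKM and to between 1096 and 1374 RPKM in females. The keratinocyte markers summed to 22647, 21352 and 18938 RPKM in males and to 14801, 17268 and 13134 RPKM in females, without overlap, a difference carried by Krt1 and Krt10, while Krt5, Krt14 and Trp63 had log2 fold changes of -0.06, -0.11 and 0.02. At an unadjusted p-value below 0.05 (edgeR), Krt1 and Krt10, Col1a1 and Col1a2, and Cdh5 and Tek were lower in females, with log2 fold changes of -0.91, -0.37, -1.21, -0.92, -0.49 and -0.30, and the mast cell genes Mcpt4 and Cma1 were higher, with 0.78 and 0.75. Of all genes tested in the hind paw, 4.25% were higher in females and 5.49% in males at that unadjusted level. None of the markers named here passed an adjusted p-value of 0.05 (edgeR). The part of these cells in the sex differences was not tested.

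In DRG, 21 chemokine genes could be tested between the sexes, 14 ligands and 7 receptors, and 3 had an unadjusted p-value below 0.05, against 6.01% of all tested genes. All 3, Ccl6, Cxcl9 and Cxcr2, were higher in females. The fitted difference was in favour of females in 19 of the 21, with a median of 0.47 for the ligands and 0.46 for the receptors on the log2 scale beside 0.00 for all tested genes, of which 50.5% were in favour of females. Without female DRG library 1 it was 14 of the 21, with medians of 0.06 for the ligands and 0.15 for the receptors, and 49.5% of all tested genes. None passed an adjusted p-value of 0.05 in edgeR's test, against 0.0484% of all tested genes, and DESeq2 gave 0 as well, out of 15 genes called. At an unadjusted p-value below 0.05 DESeq2 gave 4, out of 510 genes. Ccl6 had normalized counts of 45.2, 63.4 and 86.0 in male and of 131, 94.6 and 86.2 in female ganglia, a log2 fold change of 0.72 (SE 0.26, unadjusted p = 0.0214, adjusted p = 0.743, edgeR). Cxcr2 had counts of 11.5, 16.8 and 25.7 in males and of 42.3, 32.7 and 22.1 in females, with overlap and a log2 fold change of 0.90 (SE 0.36, unadjusted p = 0.0360, edgeR). Cxcl9 had counts of 19.7, 13.2 and 13.4 in males and of 288, 22.4 and 12.6 in females, so that its log2 fold change of 2.80 (unadjusted p = 0.0319, edgeR) rested on female library 1. Without that library the values were 0.51 for Ccl6, 0.66 for Cxcr2 and 0.18 for Cxcl9, with unadjusted p-values of 0.0706, 0.115 and 0.637 (edgeR), and 0 chemokine genes remained below 0.05. Leaving out male DRG library 1 also left 0, with values of 0.49 for Ccl6, 0.62 for Cxcr2 and 3.04 for Cxcl9. Cxcr2 was also above 0.05 without male library 2 (0.88) or female library 2 (0.90), and Cxcl9 without male library 2 (2.71) or male library 3 (2.70). Leaving out female DRG library 3 gave 6 genes.

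Female DRG library 1 carried its excess in a set of chemokine genes. Cxcl10 had counts of 92.1, 16.8 and 33.5 in male ganglia and of 245, 37.8 and 24.2 in female ganglia. Ccl12, a further monocyte attractant, had 49.2 in female library 1 and between 5.16 and 21.4 in the other DRG libraries. Cxcl16 had 140 there and between 55.9 and 75.7 elsewhere. In Cxcl11, Cxcl12 and Cxcr4 the same library lay close to the others, at 35.4, 769 and 148. Male DRG library 1 was the next highest in Cxcl10 and Ccl12.

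In the same library the interferon response genes Irf1 and Irf7 had levels of 14.1 and 9.29 RPKM, and in the other 5 DRG libraries they were between 3.46 and 5.53 and between 1.33 and 2.73 RPKM. The T and NK cell markers summed to 3.47 RPKM there and to between 0.348 and 0.811 RPKM elsewhere, and Ifng was at 0.304 RPKM there, at 0.0665 RPKM in female library 2 and at 0 in the other 4. The neutrophil markers did not set it apart, with 261 RPKM beside 103, 222 and 251 RPKM in males and 254 and 228 RPKM in the other females. The macrophage sums were 46.8, 56.8 and 54.8 RPKM in males and 121, 65.8 and 58.5 RPKM in females, without overlap. Of the 8 markers, 4 (Cd68, C1qb, C1qc and Mrc1) had an unadjusted p-value below 0.05 with higher levels in females (adjusted p = 0.743 for each, edgeR). Of all genes tested in DRG, 6.01% had an unadjusted p-value below 0.05 in either direction. Of the 6 neutrophil markers tested, Mpo, Elane and Ngp had an unadjusted p-value below 0.05 with higher levels in female DRG (adjusted p = 0.376, 0.743 and 0.743, edgeR). S100a8, S100a9 and Camp lay above 0.05 (unadjusted p = 0.372, 0.193 and 0.148, edgeR). The part of these cells in the chemokine values was not tested.

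**Figure D5:**
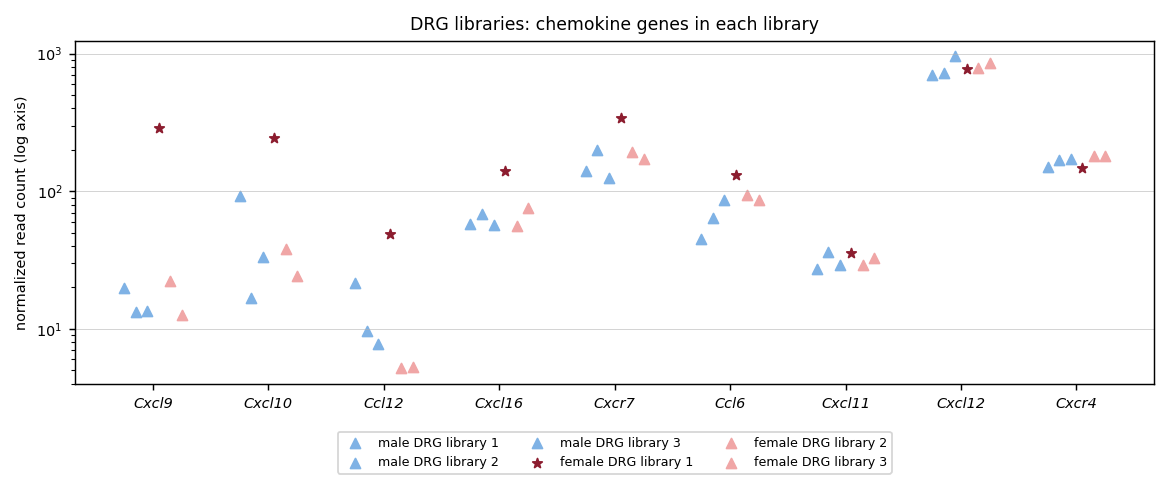
Normalized read counts on a log axis of 9 chemokine genes in the 6 DRG libraries, chosen to show genes in which female DRG library 1 (dark star) stands apart and genes in which it does not. The star is the highest point in Cxcl9, Cxcl10, Ccl12, Cxcl16, Cxcr7 and Ccl6 and lies among or next to the other libraries in Cxcl11, Cxcl12 and Cxcr4.

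Whether the sex difference itself differed between the tissues was tested as an interaction term in a fit of the 12 libraries. Of the 35 tested chemokine genes, 2 had an unadjusted p-value below 0.05, against 7.76% of all tested genes, a share close to that background. None passed an adjusted p-value of 0.05 in edgeR's test, against 0.0128% of all tested genes, and DESeq2 gave 0 out of 36 genes called, with 2 out of 1071 at an unadjusted p-value below 0.05. The count was 5 without female DRG library 1, 1 without male hind paw library 3 or female DRG library 2, and 4 without any of 5 further libraries (female hind paw 2 and 3, male DRG 1 and 3, female DRG 3). By edgeR the 2 were the receptors Ccr1 and Ccr9, and by DESeq2 they were Ccr1 and Ccl11. For Ccl11 the difference of the sex effects was 0.68 (unadjusted p = 0.0593, edgeR), and it passed 0.05 with no filter on low counts and without female hind paw library 2 or any 1 of male DRG libraries 1 and 3 and female DRG library 1. Ccl8 and Cxcl10 passed without female DRG library 1, Ccr4 without male DRG library 1 and Cxcl12 without female hind paw library 3. By edgeR with all libraries, none of the 13 genes counted in the hind paw passed 0.05 here.

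Genes outside the naming rule that bind chemokines or act with them were taken from lists, and the genes named here were chosen after the values were seen. Of 10 atypical receptors and related genes, 9 were tested between the tissues, 5 were higher in the hind paw and 2 in DRG. The shares of all tested genes, for this list and the signalling and protease lists, are 23.8% higher in the hind paw and 26.3% higher in DRG. Ppbp (Cxcl7), a ligand of Cxcr2 that lacks the Cxcl name, was called in neither direction, with a log2 fold change of -0.55 (adjusted p = 0.310, edgeR). Ccbp2 (Ackr2) and Ccrl1 (Ackr4), scavengers of inflammatory and of homeostatic CC ligands, had log2 fold changes of 3.84 and 5.60 in favour of the hind paw, and Darc (Ackr1), which carries chemokines across venules, one of -2.81. Darc stood at 75.9 to 98.4 RPKM in DRG, above every chemokine receptor there. None of the 9 had an unadjusted p-value below 0.05 between the sexes in the hind paw by edgeR. Of 25 signalling genes, 3 were higher in the hind paw (4 without female DRG library 1) and 6 in DRG, so that its DRG share was near that of all genes, with Gng2, a G protein subunit, at a log2 fold change of -4.25. Between the sexes in the hind paw, 2 of the 25 were higher in females and 0 in males at an unadjusted p-value below 0.05 (edgeR). All tested genes gave 4.25% and 5.49%, and the list's median log2 fold change was 0.02. In the hind paw Adrbk2 (Grk3), a kinase that desensitizes receptors, had counts that gave 3.65, 2.45 and 2.58 RPKM in males and 6.62, 9.61 and 6.63 RPKM in females, a log2 fold change of 1.40 (unadjusted p = 9.46e-05, adjusted p = 0.0565, edgeR). Of 10 proteases that cut chemokines, 9 were tested between tissues, with 6 higher in the hind paw and 3 in DRG. Dpp4, which trims Cxcl12, had a log2 fold change of 1.66.

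Of 20 inducers of chemokines and feedback genes of NF-kappa B, 18 were tested, and 11 were higher in the hind paw and 2, Irf1 among them, in DRG, beside 23.8% and 26.3% of all tested genes. Without female DRG library 1 the DRG count was 1, and Irf1, with a log2 fold change of -1.02 over all libraries, was at -0.66 and no longer past 2-fold. Il1a, an alarm cytokine of keratinocytes, ranged from 4.39 to 6.65 RPKM in the hind paw and was at 0 in 5 DRG libraries. Between the sexes in the hind paw, 8 of these 18 were higher in females and 1, Nfkbiz, in males at an unadjusted p-value below 0.05, against 4.25% and 5.49% of all tested genes, with a median log2 fold change of 0.31 beside -0.01 for all tested genes. Tnfaip3, an inhibitor of NF-kappa B, had levels of 2.36, 2.99 and 2.30 RPKM in males and of 4.97, 4.81 and 5.24 RPKM in females, without overlap. Its log2 fold change was 1.0 (unadjusted p = 5.21e-05, adjusted p = 0.0373, edgeR), the only adjusted p-value below 0.05 in these lists for the sexes in the hind paw. Il1b, Tnf, Nfkb2, Relb, Nfkbia, Bcl3 and Icam1 had log2 fold changes between 0.33 and 1.42.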

How the data were processed

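The counts are read counts per gene as deposited by the authors, who report bcl2fastq, TopHat2, HTSeq and DESeq with the mm9 genome and give no versions. The methods name CASAVA for demultiplexing instead. The deposited count tables hold no length or depth scaling. The labels describe rRNA-depleted total RNA and the methods oligo-dT priming, with a stranded kit in each. The RPKM values were computed here from the exons of GENCODE vM1 (NCBIM37) with median-ratio size factors over the 12 libraries. Tests were run in R 4.3.3 with edgeR 4.0.16 (quasi-likelihood, Benjamini-Hochberg adjustment over all tested genes) for each tissue and for the 12 libraries together, and DESeq2 1.42.0 was the second tool. Python 3.11.15 and NumPy 2.4.6 handled the sequences. A gene was tested when it reached 10 counts in 3 libraries of its fit. Tissue differences were called at an adjusted p-value below 0.05 and a fold change above 2. Sex differences were counted at an unadjusted p-value below 0.05.

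The genes named were, by a rule, the 5 ligands and 5 receptors with the highest mean RPKM in each tissue, those with the 5 largest called tissue differences in each direction, every chemokine gene with an unadjusted p-value below 0.05 between the sexes, and both genes of a listed pair above 0.1 RPKM in a tissue. Not every gene that met the rule is described. Other named genes were chosen after their values were seen. The chemokine genes and the marker and pathway lists were chosen with earlier results of these data known. No set test was used.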

Additional observations from a re-analysis of the deposited data

Results flagged for a closer look

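Ccr1, a receptor of monocytes and neutrophils, had normalized counts of 142, 139 and 155 in male hind paws and of 109, 136 and 107 in female hind paws. In DRG the counts were 23.0, 19.1 and 23.5 in males and 33.4, 26.7 and 29.4 in females. The sexes did not overlap in either tissue, and males were higher in the hind paw and females in DRG. Within a tissue the sex difference was -0.30 in the hind paw (unadjusted p = 0.0692) and 0.46 in DRG (unadjusted p = 0.0752), neither below 0.05 (edgeR). The difference of the female over male log2 fold changes, hind paw minus DRG, was -0.75 (unadjusted p = 0.00749, adjusted p = 0.416, edgeR with Benjamini-Hochberg adjustment). Among the 35 chemokine genes tested, this interaction had an unadjusted p below 0.05 in Ccr1 and Ccr9 (edgeR), against 7.76% of all tested genes, so the count of 2 is not above that share. With each library left out in turn it ran from -0.87 to -0.65. Of the 8 macrophage markers, 7 had an interaction with an unadjusted p below 0.05 in the same direction, from -1.56 for Cd68 to -0.75 for Csf1r (edgeR), and their part in the Ccr1 values was not tested.

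Ccr9, a receptor of gut-homing T cells, had counts of 90.6, 94.2 and 112 in male and of 72.7, 128 and 96.8 in female hind paws, with overlap. In DRG it had 4.11, 2.39 and 3.35 in males and 7.87, 8.60 and 6.30 in females, from at most 10 reads per library. The difference of the sex effects was -1.15 (unadjusted p = 0.0346, adjusted p = 0.589, edgeR with Benjamini-Hochberg adjustment). It lay above an unadjusted p of 0.05 without male hind paw library 3 (-1.04), female hind paw library 1 (-0.97), male DRG library 2 (-0.99) or 3 (-1.14), or female DRG library 1 (-1.13) or 2 (-1.04), and in DESeq2 (-1.18, unadjusted p = 0.0733). Whether either receptor changes per cell or with the number of cells cannot be told apart here.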

How the results depend on the processing

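With TMM size factors, DESeq2, the replicate block, no filter on low counts and each library left out in turn, the chemokine genes higher in the hind paw numbered 20 to 28 and those higher in DRG 6 to 9. Among the settings of the named genes that were called with all libraries, 632 kept their direction and side of the threshold, 34 kept their direction and passed to an unadjusted p above 0.05, and 0 reversed. Settings in which a gene had no test value, such as those below the count minimum, are left out of this tally. Between the tissues, Ccl3, Ccl17, Ccr7 and Cxcl3 had 13 of 16 settings. Between the sexes, Cxcl10, Cxcl3 and Ccr7 had 8 of 11 in the hind paw, and Cxcl9 had 10 of 11 in DRG. TMM moved the median tissue difference of all genes by 0.01.

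The count of genes higher in male hind paws was 1 with all 12 libraries in 1 fit, and 0 to 2 with each library left out. The count of genes higher in female hind paws was 8 to 13 with each library left out, and 10 with all 12 libraries in 1 fit, where Ccl2, Ccl8 and Cxcl10 were lost. In DRG the sex count was 6 with no filter on low counts, 5 with a replicate block, 6 with all 12 libraries in 1 fit, and 0 to 6 with each library left out. The interaction count was 4 with no filter, 5 with a replicate block, and 1 to 5 with each library left out. The ratio of ligand to receptor sums in the hind paw was 7.37 without the most abundant ligand and receptor. The causes were not tested.

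Library numbers were checked as possible pairs, because a paired fit would need them. The residuals of same-numbered hind paw and DRG libraries had correlations across genes from -0.28 to 0.13, so the numbers were not used as pairs, and whether they mark shared animals is not known. The paired block shared all 13 genes of the female hind paw. In DRG it lost Cxcr2 and added Ccl7, Cxcl10 and Cxcr7, and in the interaction it added Ccl11, Ccl6 and Cxcl5.

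Of the 58 chemokine genes, 18 never rose above 9 reads. Of these, 7 had 0 reads in all libraries, and the other 11 were tested only with no filter on low counts, where 5 were called between the tissues. Counting floors cover counting error alone. Sex effects in whole tissue, including those of the estrous phase, injection and cell content, cannot be told apart.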
